A study of Mus musculus with 10 samples.

Results

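The 38 genes described here mark macrophages, the phagocytes that settle in the embryo's organs, and were chosen by their symbols in the deposited table of inner ear expression. The table listed 37 of them among its 15472 genes, and Cd14, the co-receptor for bacterial lipopolysaccharide, was not found in it. Bulk RNA was sequenced from inner ears of C57BL/6 embryos at E16.5, from 5 libraries of Tbx1 nmf219/nmf219 homozygotes, written nmf219 below, and 5 libraries of wild type embryos, written WT. Tbx1 encodes a T-box transcription factor of the otocyst and the surrounding mesenchyme, and the labels do not say what the nmf219 allele changes. Neither the number of ears or embryos behind a library nor whether libraries came from separate embryos is stated, so the p-values below speak only of the scatter among these libraries, part of which may be technical. Tbx1 RNA itself had a log2 fold change of 0.06 (nmf219 minus WT, SE 0.10, limma adjusted p = 0.872). Values are the CPM that the authors deposited (read counts scaled by the authors). The columns summed to 990643 to 1009217 CPM, so the scaling was not to the plain total of reads alone. Reads recovered from these values and summed over the listed genes ran from 35293445 to 40942278 a library in nmf219 and 31244799 to 41875972 in WT.

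Macrophages of the embryo descend from yolk sac and fetal liver progenitors and populate the ear before its sensory epithelium matures, lying in the mesenchyme, along vessels and beside the ganglion. They need signals through the receptor Csf1r, are specified by the transcription factors PU.1 (gene Spi1) and Irf8, and clear dying cells with the help of complement, Fc receptors and scavenger receptors. Hbb-y, the embryonic beta-like globin of primitive red cells, is replaced by adult globins as gestation proceeds, so its level served as an index of embryo maturity. The members were grouped by role into regulators (3 genes), surface identity (4), complement (5), Fc receptors and ITAM adaptors (6), resident and scavenger genes (9), lysosome and effector genes (5) and general leukocyte genes (5).

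The macrophage genes were expressed at a low level for bulk tissue. Their mean over the 10 libraries ran from 1.53 CPM for Folr2, a folate receptor of resident macrophages, to 339 CPM for Dab2, an endocytic adaptor that many other cell types also express, with a median of 8.22 CPM against 25.1 CPM for all listed genes. Per kilobase of exon, Dab2 led at 46.2 CPM per kb, followed by the lysozyme Lyz2 at 18.5, the complement genes C1qb at 14.4 and C1qa at 13.2, and the scavenger receptor Stab1 at 13.3. The pan-leukocyte phosphatase Ptprc and the hemoglobin scavenger receptor Cd163 stood lowest on that scale, at 0.291 and 0.296 CPM per kb. All 37 present members had reads in every library. By the reads recovered from the CPM values, the fewest were 7 reads of Cd163 in WT library 4. The other 36 members had at least 20 recovered reads in each library. Fcgr2b and Fcgr3, and Lyz2 and its near copy Lyz1, share similar sequence, and how reads common to such genes were counted is not given in the sources used here.

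Markers of other blood cells were listed in part in the same libraries. The table held 1 of 13 lymphocyte markers (Cd79b, 0.549 to 1.46 CPM), 2 of 9 megakaryocyte markers, 5 of 9 mast cell markers and 7 of 11 neutrophil markers. The neutrophil markers summed to 13.4 to 43.0 CPM in nmf219 and 15.0 to 23.1 CPM in WT, and the mast cell markers to 87.3 to 96.3 CPM in nmf219 and 95.2 to 100.4 CPM in WT. Red cell markers were abundant, with 12 of 13 in the table summing to 5073 to 7776 CPM in nmf219 and 2629 to 9795 CPM in WT. Microglia genes, listed for the brain's macrophages, were all present (8 of 8), among them the purinergic receptor P2ry12 at 1.67 to 4.04 CPM. Blood endothelium markers (12 of 12) summed to 667 to 711 CPM in nmf219 and 580 to 687 CPM in WT, and lymphatic endothelium markers (6 of 6) to 116 to 136 CPM in nmf219 and 92.5 to 125 CPM in WT. Stab1, Lyve1, Mrc1 and Dab2 are also known from endothelial cells, and their share from those cells was not tested.

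Across libraries most macrophage genes moved together, and the extremes were both WT. WT library 4 had the lowest value of the 10 for 28 of 37 members (75.7%, against 23.1% of all genes), and was among the 2 lowest for 36 of 37 (30.9% of all genes). WT library 5 had the highest value for 18 of 37 (48.6%, against 12.4% of all genes), and WT library 2 was among the 2 lowest for 23 of 37 (62.2%, against 18.1%). The ratio of WT library 5 to WT library 4 had a median of 1.71 over the members and ran from 1.06 for Coro1a to 18.6 for Cd163. The members' spread was larger in WT than in nmf219 for 33 of 37 (89.2%, against 67.9% of all genes), with a median coefficient of variation of 10.6% in nmf219 and 19.9% in WT. Each member's correlation with the mean of the others over the 10 libraries, which share depth scaling and tissue pieces, had a median r of 0.88. It reached 0.99 for Fcgr3 and was at least 0.9 for 15 members, and was lowest for Coro1a (0.21), Dab2 (0.29) and Trem2 (0.29). For Dab2, r was 0.93 once each genotype's mean was taken out of the values. By rank (Spearman rho) the correlation was lower for some members, such as Lyve1 (-0.08, r 0.59) and C3ar1 (0.39, r 0.66). It was higher for a few, such as Aif1 (0.65, r 0.55).

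**Figure D1:**
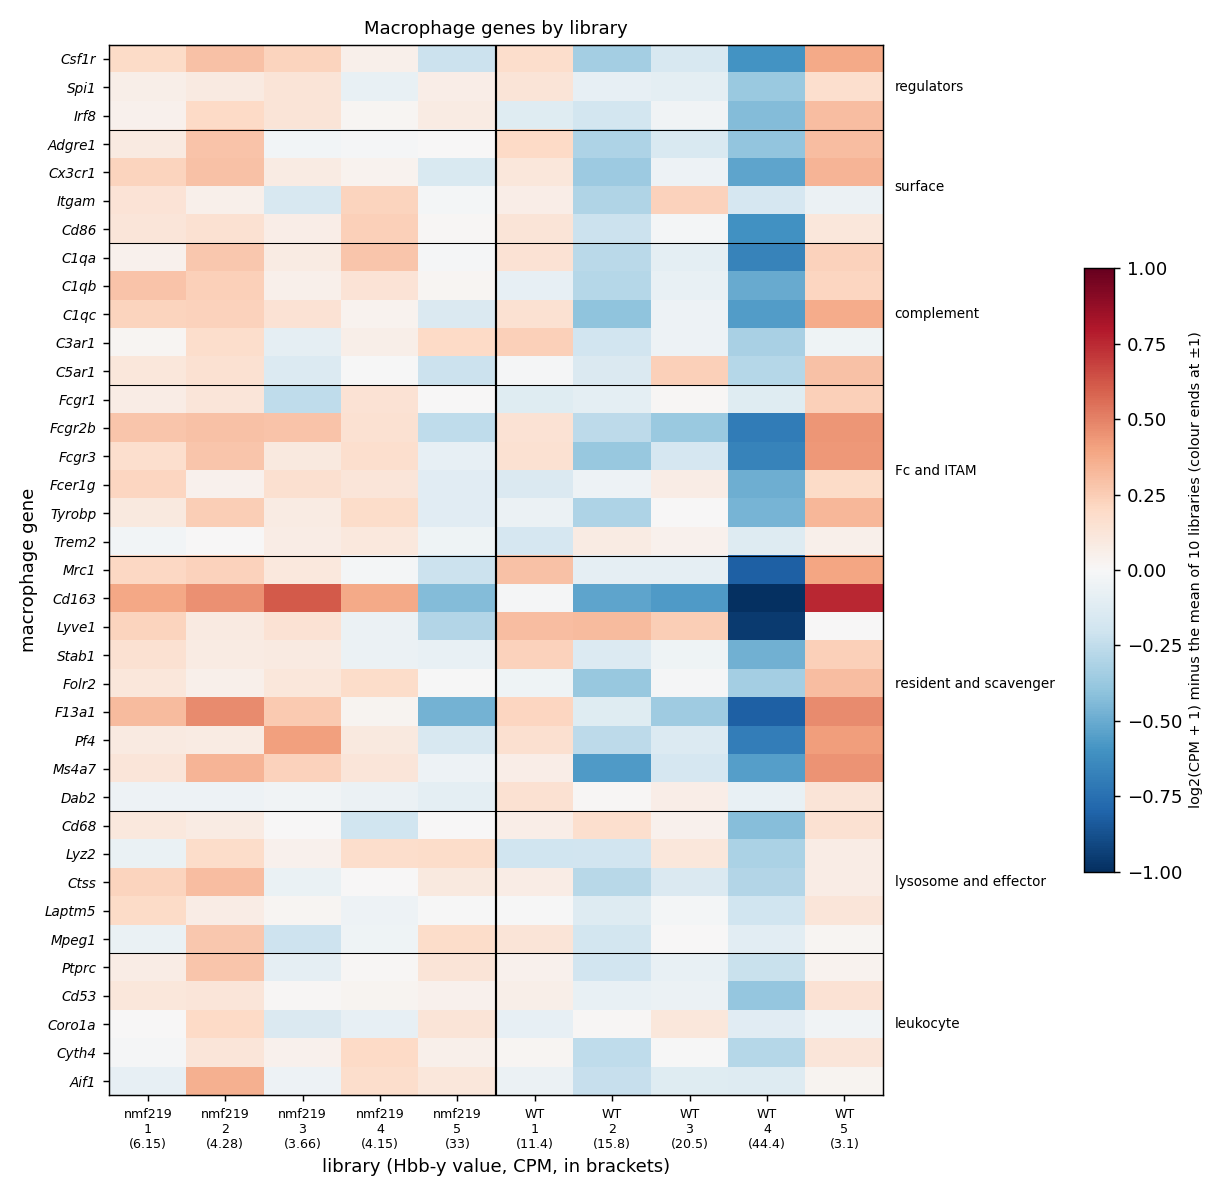
Each cell gives a macrophage gene's log2(CPM + 1) in 1 library minus its mean over the 10 libraries, with nmf219 libraries left of WT libraries, genes grouped by role and each library's Hbb-y value in brackets. WT library 4 (Hbb-y 44.4 CPM) is blue for nearly all genes, and WT library 5 (Hbb-y 3.10 CPM) is red for most.

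The libraries also differed in Hbb-y. It had 6.15, 4.28, 3.66, 4.15 and 33.0 CPM in nmf219 libraries 1 to 5, against 11.4, 15.8, 20.5, 44.4 and 3.10 CPM in WT libraries 1 to 5. Low and high libraries occurred in both genotypes: nmf219 library 5 was high among its group and WT library 5 was low among its own. Apart from library 5 of each group, nmf219 libraries stood at 3.66 to 6.15 CPM and WT libraries at 11.4 to 44.4 CPM. Hbb-y averaged 10.2 CPM in nmf219 and 19.0 CPM in WT. This difference did not pass the test (exact permutation test on log2 values, two-sided p = 0.238), which does not show that the genotypes were balanced in Hbb-y. The alpha-like embryonic globin Hba-x had 3.92, 3.07, 2.64, 3.03 and 12.5 CPM in nmf219 libraries 1 to 5, against 5.01, 5.01, 8.47, 11.5 and 2.92 CPM in WT libraries 1 to 5. The adult globin Hbb-bs had 3112, 2065, 2239, 2445 and 2109 CPM in nmf219 libraries 1 to 5, against 1660.2, 1760.1, 1736, 967 and 3983 CPM in WT libraries 1 to 5. It was lowest in WT library 4 and highest in WT library 5, but nmf219 library 5 was not low. Embryo maturity and the blood left in the dissected tissue cannot be told apart from Hbb-y alone.

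With genotype in the fit, 15 of 37 macrophage genes were lower in libraries with more Hbb-y (limma adjusted p under 0.05) and none was higher. That is 40.5% of the members, against 9.62% of all 15471 genes tested that were lower and 9.23% that were higher (18.9% in either direction). The slope, in units of log2(CPM + 1) for each unit of log2(Hbb-y + 1), was below 0 for 35 of 37 members (94.6%, against 48.8% of all genes), with a median of -0.12 for the members and 0.00 for all genes. The 15 were Csf1r, Cx3cr1, C1qa, C1qb, C1qc, Fcgr2b, Fcgr3, Fcer1g, Tyrobp, Mrc1, Cd163, Stab1, F13a1, Pf4 and Ms4a7. In bulk tissue, fewer macrophages and less of these RNAs in each macrophage cannot be told apart. The calls leaned on the extremes: without WT library 5, 2 members passed the test, without WT library 4, 6 did, and without WT library 4 and nmf219 library 5, the libraries farthest from the median Hbb-y value, 1 did (Cd163). Of all genes, 293, 879 and 215 passed in those 3 fits, in that order, against 2917 with all libraries. With 1 library left out, Csf1r, Fcgr2b, Pf4 and Mrc1 kept the call in 9 of 10 fits, losing it without WT library 5, and Cx3cr1, Fcgr3 and Ms4a7 in 8 of 10, losing it without WT library 4 or 5. The slope medians under those 3 settings were -0.08, -0.07 and -0.10.

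**Figure D2:**
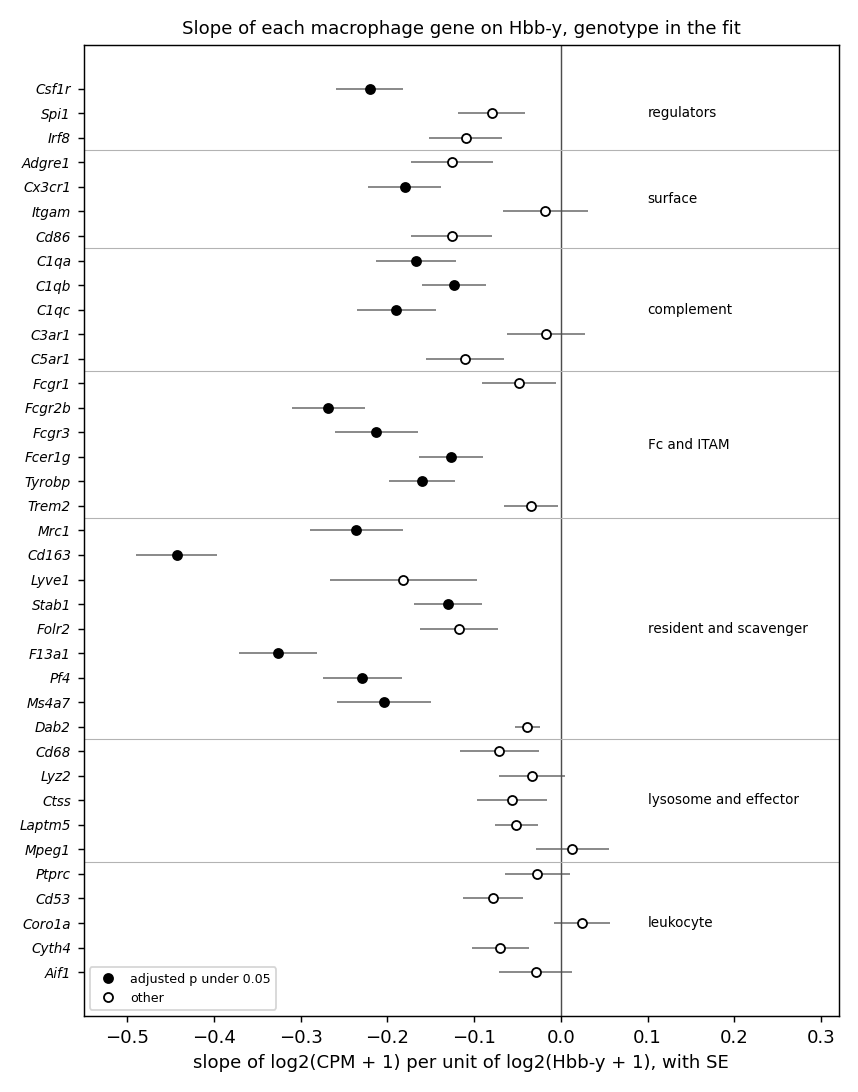
Points give each macrophage gene's slope of log2(CPM + 1) on log2(Hbb-y + 1) with genotype in the fit, bars its SE, and filled points the 15 genes with a limma adjusted p under 0.05. All filled points lie left of 0, from -0.44 for Cd163 to -0.12 for C1qb. None falls among the 5 lysosome and effector genes or the 5 general leukocyte genes, where 9.62% of all genes were called lower.

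By limma's adjusted test, 9.62% of all genes fell with Hbb-y. By role, 6 of 9 resident and scavenger genes, 4 of 6 Fc receptor and adaptor genes and 3 of 5 complement genes fell. So did 1 of 4 surface genes and 1 of 3 regulators, while 0 of 5 lysosome and effector genes and 0 of 5 general leukocyte genes passed. At the share of all genes, 0 calls among 5 genes do not set a role apart from all genes. At an unadjusted limma p under 0.05, 0 of 5 lysosome and effector genes and 1 of 5 general leukocyte genes were lower, against 17% of all genes. The difference between roles was not tested.

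The start regions of the macrophage genes were searched for the purine-rich core bound by PU.1, because Spi1 is a member itself and its product is known to act at many of the others. RefSeq windows from 250 bases before to 50 bases after a start site (GRCm38.p6) were on hand for 30 of the 38 genes. Only the 250 bases before the start were searched, in the members and in all genes. GAGGAA, on either strand, was found in 17 of those 30 genes (56.7%), against 25.9% of 27025 genes. The longer GAGGAAGT, which contains GAGGAA, was found in 2 (C1qc and Pf4, 6.67% against 2.79%), and the ETS-IRF composite element, where PU.1 and Irf8 bind together, in 2 (Fcgr2b and Folr2, 6.67% against 2.68%). GAGGAA was about as common among members that fell with Hbb-y (7 of 12) as among those that did not pass (10 of 18). A match of letters is a description and does not show binding.

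The runs below are the parts of those windows that lie before the first annotated exon, for 7 genes that fell with Hbb-y. They show where the core stands in 6 of them, in capitals as GAGGAA or its reverse complement TTCCTC (for C1qc and Pf4 the longer ACTTCCTC), and Fcer1g as a gene without it. Each is written 5′ to 3′ on the gene's strand. The intervals are chr2:14229164-14229391 for Mrc1 (plus), chr13:37050245-37050494 for F13a1 (minus), chr5:90772185-90772434 for Pf4 (plus), chr14:31168642-31168891 for Stab1 (minus), chr4:136886201-136886450 for C1qb (minus), chr4:136893066-136893164 for C1qc (minus) and chr1:171234366-171234599 for Fcer1g (minus).
Mrc1: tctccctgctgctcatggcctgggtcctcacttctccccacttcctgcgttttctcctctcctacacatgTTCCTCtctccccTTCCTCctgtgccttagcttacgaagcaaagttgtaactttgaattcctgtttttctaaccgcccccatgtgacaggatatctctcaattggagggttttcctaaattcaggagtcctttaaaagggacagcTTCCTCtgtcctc
F13a1: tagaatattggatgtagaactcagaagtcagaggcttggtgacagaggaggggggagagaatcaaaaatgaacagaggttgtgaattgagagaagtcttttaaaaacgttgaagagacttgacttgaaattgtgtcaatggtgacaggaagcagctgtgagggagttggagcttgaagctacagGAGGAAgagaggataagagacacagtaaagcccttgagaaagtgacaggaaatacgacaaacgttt
Pf4: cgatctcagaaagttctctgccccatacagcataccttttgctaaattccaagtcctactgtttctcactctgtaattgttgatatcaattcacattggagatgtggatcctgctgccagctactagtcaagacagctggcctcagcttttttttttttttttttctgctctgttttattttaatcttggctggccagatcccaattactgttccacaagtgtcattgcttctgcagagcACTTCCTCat
Stab1: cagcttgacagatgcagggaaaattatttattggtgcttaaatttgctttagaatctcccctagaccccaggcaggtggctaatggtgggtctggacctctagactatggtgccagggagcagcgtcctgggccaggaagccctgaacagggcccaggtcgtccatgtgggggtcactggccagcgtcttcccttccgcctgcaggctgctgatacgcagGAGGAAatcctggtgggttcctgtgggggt
C1qb: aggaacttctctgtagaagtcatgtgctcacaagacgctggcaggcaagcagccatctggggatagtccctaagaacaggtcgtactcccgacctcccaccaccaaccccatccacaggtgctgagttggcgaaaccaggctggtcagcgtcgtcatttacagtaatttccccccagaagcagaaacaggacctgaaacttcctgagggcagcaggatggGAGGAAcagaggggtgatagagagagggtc
C1qc: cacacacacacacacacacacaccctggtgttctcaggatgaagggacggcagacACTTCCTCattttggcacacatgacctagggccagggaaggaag
Fcer1g: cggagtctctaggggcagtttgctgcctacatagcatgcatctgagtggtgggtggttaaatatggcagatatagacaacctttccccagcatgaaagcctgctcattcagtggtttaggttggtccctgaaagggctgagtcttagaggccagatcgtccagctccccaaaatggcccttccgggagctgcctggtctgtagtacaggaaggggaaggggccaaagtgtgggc
Mrc1 held the core 3 times, nearest at 30 to 35 bases before the RefSeq start. In Pf4 it lay at 3 to 8 bases before the start, in C1qb and Stab1 at 25 to 30, in F13a1 at 61 to 66 and in C1qc at 188 to 193.

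The resident and scavenger genes held the steepest slopes. Cd163, on chromosome 6 (GRCm38, 124304656 to 124330527, plus strand), takes up hemoglobin bound to haptoglobin. It had 2.17, 2.32, 2.72, 2.16 and 0.793 CPM in nmf219 libraries 1 to 5, against 1.41, 0.687, 0.635, 0.167 and 3.10 CPM in WT libraries 1 to 5. The low values were those of the libraries with much Hbb-y, nmf219 library 5 and WT libraries 2, 3 and 4, and the genotypes overlapped. The slope was -0.44 (SE 0.05, limma adjusted p = 0.00136), and it passed the test in all 21 alternative fits, with adjusted p between 0.00024 and 0.0303. F13a1 encodes the A chain of coagulation factor XIII and is carried by macrophages and platelets. It had 78.3, 87.6, 75.4, 63.9 and 44.8 CPM in nmf219 libraries 1 to 5, against 73.0, 57.5, 48.7, 35.2 and 87.2 CPM in WT libraries 1 to 5. Its order over the WT libraries was the reverse of Hbb-y's, and its lowest nmf219 value was again in library 5. The slope was -0.33 (SE 0.04, limma adjusted p = 0.00252) and failed the test only without both WT library 4 and nmf219 library 5 (adjusted p = 0.109).

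Mrc1, the mannose receptor of tissue-resident macrophages and the gene with 3 cores in its run above, was one of the more abundant members. It had 73.2, 74.5, 68.1, 62.3 and 54.2 CPM in nmf219 libraries 1 to 5, against 77.8, 59.2, 59.4, 35.4 and 83.3 CPM in WT libraries 1 to 5. WT library 4 stood well below all other libraries, and the WT range spanned the whole nmf219 range. The slope was -0.24 (SE 0.05, limma adjusted p = 0.0138). Pf4, platelet factor 4, is also made by embryonic macrophages in the mouse. It had 8.58, 8.54, 10.97, 8.62 and 7.08 CPM in nmf219 libraries 1 to 5, against 9.08, 6.51, 7.20, 4.58 and 11.01 CPM in WT libraries 1 to 5. The groups overlapped, with WT library 4 lowest of the 10 and nmf219 library 5 lowest of its group. Its slope was -0.23 (SE 0.05, limma adjusted p = 0.00855). The megakaryocyte gene Gp1bb, a platelet glycoprotein and 1 of the 2 listed megakaryocyte markers in the table, had a slope of 0.04 (SE 0.04, limma adjusted p = 0.604). Other listed platelet markers, among them Gp1ba, Gp9 and Gp5, were not in the table, so Gp1bb alone does not show how platelets varied. The slopes of Pf4 and Gp1bb were not compared by a test, and the cell source of the Pf4 RNA was not tested.

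Ms4a7, a tetraspan membrane protein of tissue macrophages, was lowest in WT libraries 2 and 4. It had 3.95, 4.74, 4.33, 3.94 and 3.38 CPM in nmf219 libraries 1 to 5, against 3.75, 2.06, 3.05, 2.10 and 5.21 CPM in WT libraries 1 to 5, and its slope was -0.20 (SE 0.05, limma adjusted p = 0.0265). Stab1, stabilin-1, which endocytoses modified lipoproteins, had 151, 144, 144, 130.1 and 129 CPM in nmf219 libraries 1 to 5, against 159.6, 124, 132, 96.7 and 160.4 CPM in WT libraries 1 to 5. Both ends of the range were WT, with WT library 4 apart at the bottom, and the slope was -0.13 (SE 0.04, limma adjusted p = 0.0396). The call held in 5 of 10 fits with 1 library left out, and was lost without nmf219 libraries 2 or 3 or WT libraries 2, 4 or 5. The other members of the role did not pass the test. Lyve1, the hyaluronan receptor shared by lymphatic vessels and a subset of resident macrophages, stood at 10.3 to 15.1 CPM in nmf219 and at 6.11 CPM in WT library 4 against 12.8 to 16.2 CPM in the other WT libraries, with a slope of -0.18 (SE 0.08, limma adjusted p = 0.156). Folr2 had 1.51 to 1.86 CPM in nmf219 and 0.925 to 2.11 CPM in WT (slope -0.12, limma adjusted p = 0.0930).

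Dab2 was the 1 gene of the 9 in its role with a log2 fold change below 0 in the fit on genotype alone. Its difference from the others was not tested. It had 328, 327, 331, 325 and 317 CPM in nmf219 libraries 1 to 5, against 376, 342, 356, 322 and 371 CPM in WT libraries 1 to 5. WT libraries 1, 2, 3 and 5 lay above all 5 nmf219 libraries, and WT library 4 lay within the nmf219 range. Its log2 fold change was -0.12 (SE 0.04, limma adjusted p = 0.680, unadjusted p = 0.0168), and with Hbb-y in the fit it was -0.15 with the smallest adjusted p of any member (limma adjusted p = 0.246). Its slope on Hbb-y was -0.04 (SE 0.01, limma adjusted p = 0.0836).

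**Figure D3:**
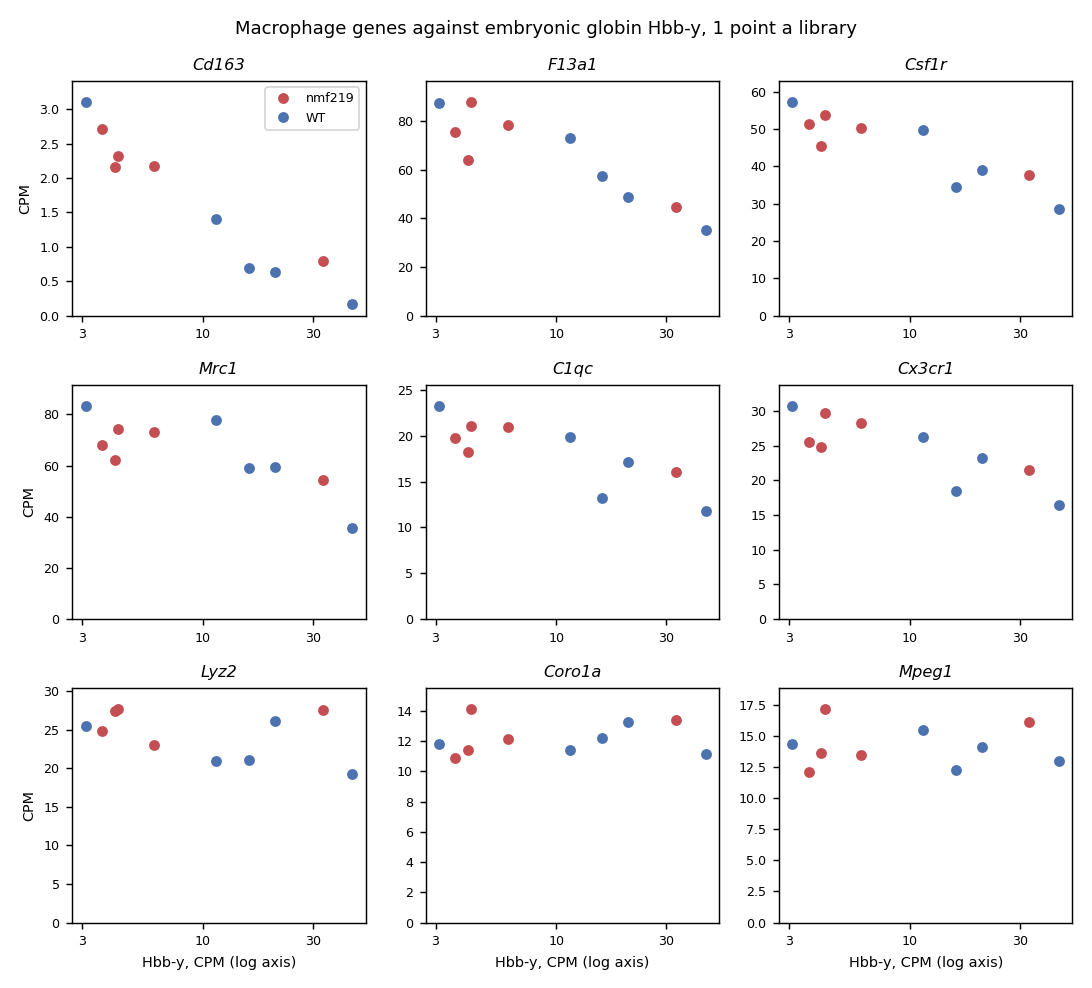
Each panel plots a macrophage gene's CPM in the 10 libraries against Hbb-y CPM on a log axis, with nmf219 libraries in red and WT libraries in blue. Cd163, F13a1, Csf1r, Mrc1, C1qc and Cx3cr1 are lower in the libraries with more Hbb-y, with WT library 4 (Hbb-y 44.4 CPM) lowest in each, while Lyz2, Coro1a and Mpeg1 had slopes of -0.03, 0.02 and 0.01.

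Among the regulators, Csf1r, the receptor for the growth factors Csf1 and Il34, had 50.3, 53.8, 51.4, 45.5 and 37.6 CPM in nmf219 libraries 1 to 5, against 49.7, 34.4, 39.0, 28.6 and 57.1 CPM in WT libraries 1 to 5. The lowest nmf219 value was in library 5, and WT libraries 4 and 5 held the lowest and the highest value of all 10. The slope was -0.22 (SE 0.04, limma adjusted p = 0.00488). Spi1, which encodes PU.1, had 3.69, 3.80, 3.93, 3.28 and 3.72 CPM in nmf219 libraries 1 to 5, against 3.92, 3.25, 3.20, 2.48 and 4.06 CPM in WT libraries 1 to 5. WT library 4 was again lowest, nmf219 library 5 was not low, and the slope was -0.08 (SE 0.04, limma adjusted p = 0.175). Irf8, an interferon regulatory factor of macrophage specification, stood at 3.87 to 4.5 CPM in nmf219 and 2.55 to 4.96 CPM in WT, with a slope of -0.11 (SE 0.04, limma adjusted p = 0.0924).

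The wider Csf1r pathway was listed with 10 further genes, of which 4 fell and 1 rose with Hbb-y. Of all genes, 9.62% fell and 9.23% rose. The ligand Csf1 had 39.0, 36.3, 39.1, 36.6 and 32.9 CPM in nmf219 libraries 1 to 5, against 33.9, 31.9, 32.1, 25.6 and 41.7 CPM in WT libraries 1 to 5 (slope -0.13, SE 0.02, limma adjusted p = 0.00664). The second ligand, Il34, was low throughout, at 0.555 to 1.24 CPM in nmf219 and 0.310 to 1.37 CPM in WT (slope -0.21, SE 0.04, limma adjusted p = 0.00743). Both ligands were lowest in WT library 4 and highest in WT library 5, as the receptor was. Maf, a transcription factor of resident macrophages that other tissues also use, fell as well (slope -0.16, SE 0.03, limma adjusted p = 0.00669), and Runx1, a hematopoietic transcription factor, rose (slope 0.07, SE 0.02, limma adjusted p = 0.0170).

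Of the surface genes, Cx3cr1, the fractalkine receptor, had 28.3, 29.7, 25.5, 24.7 and 21.5 CPM in nmf219 libraries 1 to 5, against 26.2, 18.5, 23.2, 16.4 and 30.7 CPM in WT libraries 1 to 5. The lowest were WT libraries 4 and 2 and the highest WT library 5, and the slope was -0.18 (SE 0.04, limma adjusted p = 0.0164). Adgre1, the F4/80 antigen, had 12.8, 14.8, 11.8, 11.9 and 12.05 CPM in nmf219 libraries 1 to 5, against 13.9, 9.52, 10.7, 8.88 and 15.1 CPM in WT libraries 1 to 5. WT libraries 2, 3 and 4 lay below all nmf219 libraries, and the slope was -0.13 (SE 0.05, limma adjusted p = 0.0853). The integrin Itgam (slope -0.02, limma adjusted p = 0.834) and the costimulator Cd86 (slope -0.13, limma adjusted p = 0.0823) did not pass. The monocyte chemokine receptor Ccr2, outside the 37 members, ran opposite to them, with 3.66, 5.25, 3.79, 4.22 and 6.605 CPM in nmf219 libraries 1 to 5, against 4.41, 4.78, 6.31, 5.25 and 3.57 CPM in WT libraries 1 to 5. Its slope was 0.17 (SE 0.05, limma adjusted p = 0.0267). Of the 8 listed chemokine genes in the table Ccr2 was the 1 that rose (9.23% of all genes did). Cxcl12, a stromal chemokine, was the 1 that fell (slope -0.09, SE 0.02, limma adjusted p = 0.0141), against 9.62% of all genes.

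Of the complement genes, the 3 chains of C1q passed the slope test. C1qa, C1qb and C1qc lie next to each other on chromosome 4 (GRCm38, 136880129 to 136898803, minus strand). C1qa had 13.9, 16.4, 14.3, 16.53 and 13.3 CPM in nmf219 libraries 1 to 5, against 15.0, 10.98, 12.5, 8.09 and 15.9 CPM in WT libraries 1 to 5. C1qb had 19.0, 18.3, 16.0, 17.0 and 15.7 CPM in nmf219 libraries 1 to 5, against 14.5, 12.5, 14.6, 10.5 and 18.0 CPM in WT libraries 1 to 5. Lastly, C1qc had 20.9, 21.1, 19.8, 18.3 and 16.0 CPM in nmf219 libraries 1 to 5, against 19.9, 13.2, 17.2, 11.8 and 23.3 CPM in WT libraries 1 to 5. All 3 chains were lowest in WT library 4, next lowest in WT library 2, and lowest within nmf219 in library 5. Their slopes were -0.17 for C1qa (SE 0.05, limma adjusted p = 0.0289), -0.12 for C1qb (SE 0.04, limma adjusted p = 0.0405) and -0.19 for C1qc (SE 0.05, limma adjusted p = 0.0172). With 1 library left out, C1qa and C1qc kept the call in 8 of 10 fits and C1qb in 5 of 10, losing it without nmf219 library 2 or WT libraries 1, 2, 4 or 5.

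The anaphylatoxin receptors did not pass the test, and their difference from C1q was not tested. C3ar1, the receptor for C3a, had 8.41, 9.48, 7.69, 8.67 and 9.62 CPM in nmf219 libraries 1 to 5, against 9.91, 7.10, 7.96, 6.42 and 8.004 CPM in WT libraries 1 to 5. Here nmf219 library 5 was the highest of its group, and the slope was -0.02 (SE 0.04, limma adjusted p = 0.827). C5ar1, the receptor for C5a, stood at 1.98 to 2.83 CPM in nmf219 and 1.84 to 3.23 CPM in WT (slope -0.11, limma adjusted p = 0.111). Of 12 other complement genes in the table, 6 fell and 1 rose with Hbb-y, against 9.62% and 9.23% of all genes. The C1 proteases C1ra and C1s1 were among those that fell, with slopes of -0.25 (SE 0.04, limma adjusted p = 0.00319) and -0.26 (SE 0.04, limma adjusted p = 0.00259).

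The Fc receptors and their adaptors fell in 4 of 6 cases, against 9.62% of all genes. Fcgr2b, the inhibitory IgG receptor on chromosome 1, had 2.66, 2.71, 2.69, 2.37 and 1.53 CPM in nmf219 libraries 1 to 5, against 2.34, 1.52, 1.33, 0.859 and 3.10 CPM in WT libraries 1 to 5. As with Cd163, nmf219 library 5 lay below the other nmf219 libraries, and the slope was -0.27 (SE 0.04, limma adjusted p = 0.00316). Fcgr3, an activating IgG receptor, had 11.2, 12.05, 10.6, 11.1 and 9.19 CPM in nmf219 libraries 1 to 5, against 11, 7.28, 8.63, 5.80 and 13.6 CPM in WT libraries 1 to 5. Its slope was -0.21 (SE 0.05, limma adjusted p = 0.0139). WT libraries 4 and 5 were again the ends of the range.

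Both ITAM adaptors, which carry signals of activating receptors, fell. Fcer1g, the common gamma chain, had 9.01, 7.89, 8.66, 8.37 and 6.97 CPM in nmf219 libraries 1 to 5, against 6.79, 7.31, 8.06, 5.15 and 8.84 CPM in WT libraries 1 to 5 (slope -0.13, SE 0.04, limma adjusted p = 0.0357). Tyrobp, the adaptor DAP12, had 6.92, 7.82, 6.83, 7.43 and 5.86 CPM in nmf219 libraries 1 to 5, against 6.13, 4.98, 6.44, 4.37 and 8.31 CPM in WT libraries 1 to 5 (slope -0.16, SE 0.04, limma adjusted p = 0.0164). For each, WT library 4 was lowest of the 10 and nmf219 library 5 lowest of its group. With 1 library left out, Fcer1g kept the call in 6 of 10 fits, losing it without nmf219 libraries 3 or 5 or WT libraries 4 or 5, and Tyrobp in 8 of 10. Trem2, a lipid receptor that signals through DAP12, did not pass, at 3.22 to 3.69 CPM in nmf219 and 2.87 to 3.61 CPM in WT (slope -0.03, limma adjusted p = 0.471), nor did Fcgr1, the high-affinity IgG receptor (slope -0.05, limma adjusted p = 0.465). Downstream, 2 of 12 listed ITAM signalling genes fell, against 9.62% of all genes. They were Nckap1l (slope -0.16, SE 0.04, limma adjusted p = 0.0247), a part of the actin-regulating WAVE complex, and the adaptor Lcp2 (slope -0.16, SE 0.05, limma adjusted p = 0.0473).

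No lysosome or effector gene passed the slope test. Lyz2, lysozyme, had 23.0, 27.6, 24.9, 27.4 and 27.5 CPM in nmf219 libraries 1 to 5, against 20.9, 21.01, 26.1, 19.2 and 25.4 CPM in WT libraries 1 to 5, with nmf219 library 5 among the highest (slope -0.03, SE 0.04, limma adjusted p = 0.587). Ctss, the cysteine protease cathepsin S, had 14.2, 15.1, 11.4, 12.1 and 12.9 CPM in nmf219 libraries 1 to 5, against 12.7, 9.73, 10.8, 9.67 and 12.7 CPM in WT libraries 1 to 5 (slope -0.06, SE 0.04, limma adjusted p = 0.366). Mpeg1, the pore-forming perforin-2, had 13.4, 17.1, 12.05, 13.6 and 16.11 CPM in nmf219 libraries 1 to 5, against 15.5, 12.2, 14.1, 13.01 and 14.3 CPM in WT libraries 1 to 5 (slope 0.01, SE 0.04, limma adjusted p = 0.859). The groups overlapped for all 3 genes. Cd68 (slope -0.07, limma adjusted p = 0.302) and Laptm5 (slope -0.05, limma adjusted p = 0.178), a pair of lysosomal membrane proteins, did not pass. Of the lysosome genes that most cells use, 11 of 17 fell, against 9.62% of all genes. Among them were the cathepsins Ctsh (slope -0.21, SE 0.03, limma adjusted p = 0.00254) and Ctsl (slope -0.10, SE 0.02, limma adjusted p = 0.00343).

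The general leukocyte genes gave no call. Coro1a, an actin regulator of white blood cells, had 12.2, 14.1, 10.9, 11.4 and 13.4 CPM in nmf219 libraries 1 to 5, against 11.4, 12.2, 13.2, 11.1 and 11.8 CPM in WT libraries 1 to 5. No library stood apart, and the slope was 0.02 (SE 0.03, limma adjusted p = 0.645). Cd53, a tetraspanin, had 4.95, 4.98, 4.54, 4.60 and 4.68 CPM in nmf219 libraries 1 to 5, against 4.75, 4.24, 4.28, 3.22 and 5.09 CPM in WT libraries 1 to 5. WT library 4 was low and nmf219 library 5 was not (slope -0.08, SE 0.03, limma adjusted p = 0.137). The slopes of Ptprc, of the exchange factor Cyth4 and of the actin-binding protein Aif1 were -0.03, -0.07 and -0.03, with limma adjusted p of 0.653, 0.158 and 0.671.

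Other genes moved with Hbb-y in the same libraries, where 9.62% of all genes fell and 9.23% rose by limma's adjusted test. All 16 listed cell cycle genes were higher with Hbb-y, such as Plk1, a mitotic kinase (slope 0.16, SE 0.02, limma adjusted p = 0.00160). Of the listed endothelial genes, 3 of 12 of blood vessels fell, and 3 of 6 of lymphatic vessels fell with 1 rising. Of the 8 brain macrophage genes, 7 had a slope below 0 and 3 fell past the test, P2ry12 among them. The transcription factor Sall1, which other embryonic tissues also express, was the 1 that rose (slope 0.13, SE 0.03, limma adjusted p = 0.0158). Of the osteoclast genes, macrophage relatives that resorb bone and cartilage, 3 of 6 fell, among them the collagen-degrading protease Ctsk (slope -0.20, SE 0.03, limma adjusted p = 0.00232). Neutrophil genes (0 of 7) and megakaryocyte genes (0 of 2) passed limma's adjusted test in neither direction, nor did any of them at an unadjusted p under 0.05, and of the mast cell genes 1 of 5 fell (Hdc, histidine decarboxylase, slope -0.32, SE 0.07, limma adjusted p = 0.0102). The lymphocyte gene in the table, Cd79b, fell (slope -0.15, SE 0.04, limma adjusted p = 0.0222), and of 12 red cell genes 2 fell, the heme enzyme Alas2 (slope -0.33, SE 0.10, limma adjusted p = 0.0378) and Hbb-bs (slope -0.32, SE 0.09, limma adjusted p = 0.0385), and Hba-x rose. The part of tissue composition in the members' slopes was not tested.

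Within each genotype taken alone, the slope was below 0 for 28 of 37 members in nmf219 (median -0.04) and for all 37 in WT (median -0.18). These signs were not counted over all genes. The slope was steeper downward in WT for 35 members, and of all 15471 genes tested 7607 had a lower slope in WT than in nmf219. Within nmf219 the slope rests on library 5, since the other 4 libraries lay between 3.66 and 6.15 CPM of Hbb-y. No member passed limma's adjusted test of the difference between the slopes (0% of all genes did, and the smallest adjusted p of a member was 0.883). At an unadjusted p under 0.05, 11 members differed (29.7%), against 5.48% of all genes. The largest difference was that of Fcgr3, with a slope of -0.09 in nmf219 and -0.32 in WT (difference 0.23, SE 0.07).

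By genotype, no macrophage gene passed limma's adjusted test. Of all 15472 genes, 13 passed (0.084%), with 0.0129% higher and 0.0711% lower in nmf219, and the members' smallest adjusted p was 0.680. At an unadjusted p under 0.05, 5 of 37 members differed, against 7.11% of all genes (3.88% higher and 3.23% lower in nmf219). They were C1qb, Lyz2, Ctss and Aif1, which were higher in nmf219, and Dab2, which was lower. Most differences lay on the same side: 34 of 37 log2 fold changes were above 0 (91.9%) and 33 of 37 means were higher in nmf219 (89.2%, against 46.2% of all genes), with a median log2 fold change of 0.17 for the members and -0.01 for all genes. Other lists were as one-sided by genotype with no gene called by limma's adjusted test. All 12 blood endothelium genes (median 0.13, 7 at an unadjusted p under 0.05), all 17 skeletal muscle genes (median 1.59, 15 at an unadjusted p under 0.05), all 17 general lysosome genes (median 0.08, 0 at an unadjusted p under 0.05) and all 7 antigen presentation genes (median 0.16, 2 at an unadjusted p under 0.05) were above 0, and all 16 cell cycle genes (median -0.13, 0 at an unadjusted p under 0.05) were below 0. The part of these tissues in the members' differences was not tested. No member's nmf219 and WT values were free of overlap, against 1.17% of all genes. Without Dab2 and Stab1, the members summed to 485 ± 47.2 CPM in nmf219 and 434 ± 95.5 CPM in WT (SD, n = 5 each).

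The largest log2 fold changes by genotype were those of Cd163, Ms4a7 and Fcgr2b. Cd163 averaged 2.03 ± 0.729 CPM in nmf219 and 1.201 ± 1.15 CPM in WT (SD, n = 5 each), a log2 fold change of 0.56 on the log2(CPM + 1) scale (SE 0.31, limma adjusted p = 0.699). Ms4a7 averaged 4.07 ± 0.506 CPM in nmf219 and 3.23 ± 1.31 CPM in WT (log2 fold change 0.31, SE 0.18, limma adjusted p = 0.706), and Fcgr2b 2.39 ± 0.5002 CPM in nmf219 and 1.83 ± 0.889 CPM in WT (log2 fold change 0.30, SE 0.20, limma adjusted p = 0.726). C1qb, with the smallest unadjusted p of the genes that were higher, averaged 17.2 ± 1.47 CPM in nmf219 and 14.0 ± 2.78 CPM in WT (log2 fold change 0.29, SE 0.11, limma adjusted p = 0.680). All 4 had a WT spread larger than that of nmf219. In the authors' deposited table, Cd163 was the 1 member with a false discovery rate under 0.05 (log2 fold change 0.79, false discovery rate 9.54e-05), among 505 such genes (3.26%), and the next smallest rate of a member was 0.170.

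With Hbb-y in the fit, the median of the genotype differences was nearer to 0, at 0.05, 28 of 37 members stayed above 0 and none passed limma's adjusted test (smallest adjusted p = 0.246, for Dab2). Cd163 then had a log2 fold change of 0.14 and Csf1r of 0.01, against 0.22 (SE 0.17) for Csf1r without Hbb-y. Lyve1, Mrc1, F13a1, Stab1, Pf4 and Fcgr1 changed sign, to -0.14, -0.10, -0.07, -0.05, -0.01 and -0.01, and C5ar1 (-0.14), Dab2 (-0.15) and Cd68 (-0.07) lay farther below 0 than without Hbb-y. None of these passed the test in either fit. Skeletal muscle genes varied widely among the libraries, with the 17 markers summing to 1118 to 4391 CPM in nmf219 and 221 to 2684 CPM in WT; with their mean level in the fit the members' median was 0.05. Without WT library 4 it was 0.08, and without WT library 5 it was 0.24. Within the lower range of the numbers in the library descriptions (2162 to 2169, 3 nmf219 and 2 WT libraries) the median was 0.12, and within the upper range (2199 to 2208, 2 nmf219 and 3 WT libraries) it was 0.15; the median Hbb-y slopes there were -0.16 and -0.11. Xist, transcribed from the inactive X chromosome, was at 2555 to 3785 CPM in 7 libraries and at 15.7, 0.668 and 2.42 CPM in WT libraries 3, 4 and 5, so embryo sex was uneven between the groups, and with Xist in the fit the members' median was 0.13.

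**Figure D4:**
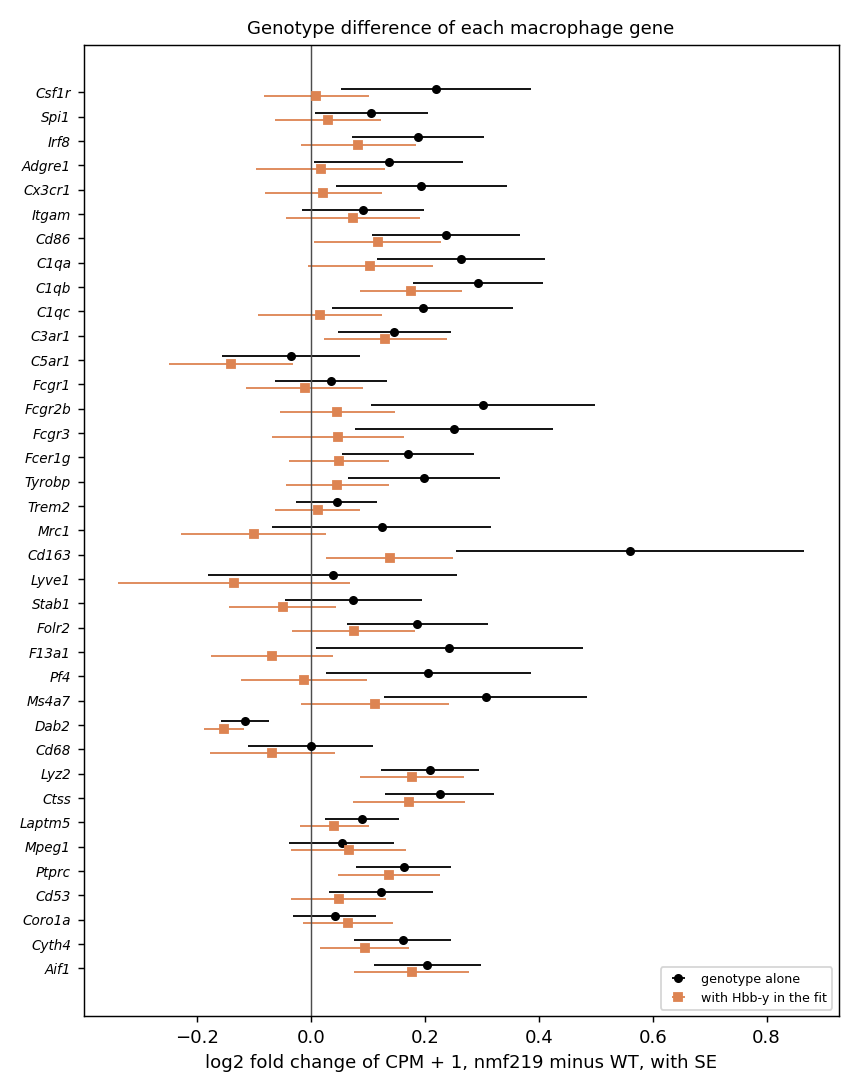
Points give each macrophage gene's log2 fold change of CPM + 1 (nmf219 minus WT) with its SE, in black from the fit on genotype alone and in orange from the fit that also holds Hbb-y. Nearly all black points lie right of 0 with a median of 0.17, the orange points centre on 0.05, and no gene passed the limma adjusted test in either fit.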

How the data were processed

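Bulk RNA-seq of inner ears was deposited by the authors as 1 table of 15472 genes with CPM values for 10 libraries, log2 fold changes, p-values and false discovery rates. Per the labels' protocols, RNA was extracted with Trizol from snap-frozen ears and libraries followed standard Illumina protocols; no source used here names the aligner, the counting, strand handling, the gene filter or the genome build. The coordinates match those of GENCODE M21 (GRCm38) at both ends for 32 of 37 members. Each deposited CPM value was a whole multiple of 1 step per library within 0.01 read (1 read is worth 0.0239 to 0.0317 CPM). This gave the reads quoted, though a check of units did not accept the recovered reads in most columns. The tests used the CPM values.

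The members and lists were chosen with earlier results of these data known. Values were tested as log2(CPM + 1), over all genes and with no filter on low values, with limma 3.58.1 (trended variance, Benjamini-Hochberg adjustment) in R 4.3.3, for genotype (5 nmf219 against 5 WT libraries), for the slope on log2(Hbb-y + 1) with genotype in the fit, and for the difference of slopes between genotypes. A gene was called at an adjusted p under 0.05. Fits were tested on simulated data. Values in all libraries are given for the 2 members of each role with the highest mean per kilobase of exon, up to 10 members past a test, and the 3 members with the largest fold change, the steepest and the flattest slope. The single Hbb-y comparison used scipy 1.17.1. The alternatives tried were 2 other pseudocounts, a filter, rescaled columns, blocks, covariates, another globin and leaving libraries out.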

Additional observations from a re-analysis of the deposited data

Results flagged for a closer look

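Over 78 groups of 5 libraries (37 members, Hbb-y and Hba-x in each genotype), 4 groups had 1 library far from the others, and chance flags about 1 in 20 groups. Cd163 had 0.793 CPM in nmf219 library 5, against 2.16 to 2.72 CPM in the other nmf219 libraries. In the same library Hbb-y had 33.0 CPM, against 3.66 to 6.15 CPM in the other nmf219 libraries, and Hba-x had 12.5 CPM, against 2.64 to 3.92 CPM. Cd68, a lysosomal glycoprotein of macrophages, had 5.70 CPM in WT library 4, against 8.25 to 9.13 CPM in the other WT libraries.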

How the results depend on the processing

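No member was called by genotype, or for a difference of slopes, in any fit. The 13 genes called by genotype became 4 with muscle, 2 with Xist and 33 with Hbb-y in the fit, and 7 to 18 with 1 library left out. The 15 members called by slope became 9 with a block for the ranges of description numbers, 6 with Hba-x in place of Hbb-y, 1 without the 2 libraries farthest in Hbb-y and 2 to 17 with 1 library left out (2 without WT library 5, 6 without WT library 4), and no called slope changed sign. The 2917 genes called by slope became 1290, 1782, 215 and 293 to 2805 in those fits. Replicate numbers did not pair the libraries (1 of 5 same-number correlations over 0.1, range -0.468 to 0.130, 0 libraries best with their own number). With the replicate block, 2 genes were called by genotype and 1276 by slope, 10 of them members. The cause of these moves was not tested.

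Among the members with values given in every library, genotype differences changed sign with muscle in the fit for Fcer1g (-0.0071), Stab1 (-0.073), Coro1a (-0.028) and Mrc1 (-0.12), with Xist for Stab1 (-0.028) and Mrc1 (-0.064), and with Hbb-y for Stab1 (-0.050), F13a1 (-0.068), Pf4 (-0.012) and Mrc1 (-0.10). With 1 library left out they ran from -0.037 to 0.14 for Stab1 and -0.065 to 0.24 for Mrc1, both below 0 without WT library 4, and from -0.00309 to 0.083 for Coro1a and -0.00581 to 0.11 for Mpeg1, both below 0 without nmf219 library 2. The slope of Mpeg1 changed sign with the description block (-0.013) and without the 2 farthest libraries (-0.029). With 1 library left out it ran from -0.039 to 0.036, that of Lyz2 from -0.091 to 0.0018 and that of C3ar1 from -0.080 to 0.031. None of these passed the test in either fit. The planned tests and scaling on whole reads were not run, because a check of units did not accept the recovered reads in most columns. Hbb-bh1 was not used here. At 3 reads, worth 0.0716 to 0.0952 CPM, depth bears most on Cd163 in WT library 4.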
